A study of Mus musculus with 14 samples.

Results

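Apart from 1 pseudogene, the genes described here encode splicing factors, the proteins that remove introns from newly made RNA. They were taken by name: every gene whose symbol begins with Srsf, Snrp, Hnrnp, Sf3a, Sf3b, U2af or Prpf was included, apart from the imprinted gene Snrpn. This rule found 68 of the 20238 gene symbols in the files, namely 11 Srsf, 11 Snrp, 21 Hnrnp, 9 Sf3a and Sf3b, 3 U2af and 13 Prpf genes. The Hnrnp genes include Hnrnpa1l2-ps2, by its symbol a pseudogene. Levels were measured by total RNA sequencing in 14 single mouse embryos at the 2-cell stage, each made by somatic cell nuclear transfer (SCNT), in which the nucleus of a body cell, here a cumulus cell, replaces that of an egg. All embryos were of the B6D2F1 strain, were activated with strontium, grew in medium with deionized serum albumin and were collected at 28 h. The 3 control embryos received neither compound. Trichostatin A (TSA), an inhibitor of histone deacetylases, was always given at 50 nM during the first 8 h from the start of activation. Vitamin C (VC), a cofactor of enzymes that demethylate histones and DNA, was given at 10 µg/ml either in the same 8 h, written VC(0-8 h), or from 8 to 15 h, written VC(8-15 h). Of the 11 treated embryos, 1 received VC(0-8 h) alone, 2 VC(8-15 h) alone, 3 TSA alone, 2 TSA+VC(0-8 h) and 3 TSA+VC(8-15 h). Each library came from 1 embryo, so fewer cells and less RNA per cell cannot be told apart, and the labels do not tie embryos to nuclear transfer experiments, although the study describes the TSA+VC(8-15 h) embryos as coming from 3 separate ones.

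Introns are recognized and cut out in steps. The 2 subunits of U2AF bind the end of the intron, and the SF3A and SF3B complexes then fix the U2 particle on the branch site. The small nuclear particles are built on a ring of Sm proteins (Snrpb, Snrpd1 to Snrpg), while Prpf proteins, such as Prpf8 and Prpf31, join or remodel the U4, U5 and U6 particles. SR proteins (Srsf) mostly favour the use of an exon and hnRNP proteins often oppose it. A 2-cell mouse embryo holds RNA left by the egg as well as RNA made by its own genome, which is activated at this stage, and the present data do not separate the sources.

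The oocyte gene Bmp15 was read in every embryo, at 91.3 to 520 RPKM (the reads of a transcript, divided by its length and by the library's total). So was the 2-cell gene Zfp352, at 0.326 to 225 RPKM. These 2 had the highest medians of their marker lists, and other markers were patchy. Of the oocyte markers, Ooep and Mos were each at 0 in 7 of the 14 embryos. Of the 2-cell markers, Zscan4c, Zscan4d and Zscan4f were at 0 in 7, 7 and 9 embryos. The summed level of 12 oocyte markers was 219 to 1541 RPKM in the controls, 1245 to 1989 RPKM after TSA and 652 to 880 RPKM after TSA+VC(8-15 h), so that the last 2 groups did not overlap. That of 11 measured 2-cell markers was 6.87, 64.6 and 376 RPKM in the controls, 186 to 637 RPKM after TSA and 438 to 580 RPKM after the double treatment. The 15 cumulus and granulosa cell markers summed to 0 to 18.5 RPKM in the controls, 0 to 144 RPKM after TSA and 7.19 to 124 RPKM after TSA+VC(8-15 h). Amhr2, Vcan and Gja1 reached 144, 69.0 and 60.6 RPKM in single embryos, with Inha, Inhba, Fshr and Lhcgr at 0 in all 14 embryos. Their part in the differences below was not tested. The files rest on 3021540 to 13589389 counted reads per embryo, of which 46184 to 197880 fell on splicing factor genes. A count of 3 on a 1 kb transcript equals 0.221 to 0.993 RPKM, depending on the embryo.

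Splicing factor genes were read more often than genes at large, but few of them in every embryo. Of the 68 genes, 67 reached 1 RPKM in at least 1 embryo, against 11193 of all 20238 genes (55.3%), and 14 (20.6%) did so in all 14 embryos, against 845 (4.18%). The exception was Srsf12, which was above 0 only in TSA replicate 3 and TSA+VC(0-8 h) replicate 1, at 0.145 and 0.209 RPKM. The families differed in this respect. Of the 21 Hnrnp genes, 10 were at 1 RPKM or more in every embryo, with a median level of 102 RPKM over the family, but none of the 11 Snrp, 9 Sf3a and Sf3b or 3 U2af genes was. The median levels of these were 0.826, 1.03 and 13.3 RPKM, and those of the Srsf and Prpf families were 20.2 and 9.96 RPKM.

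**Figure D1:**
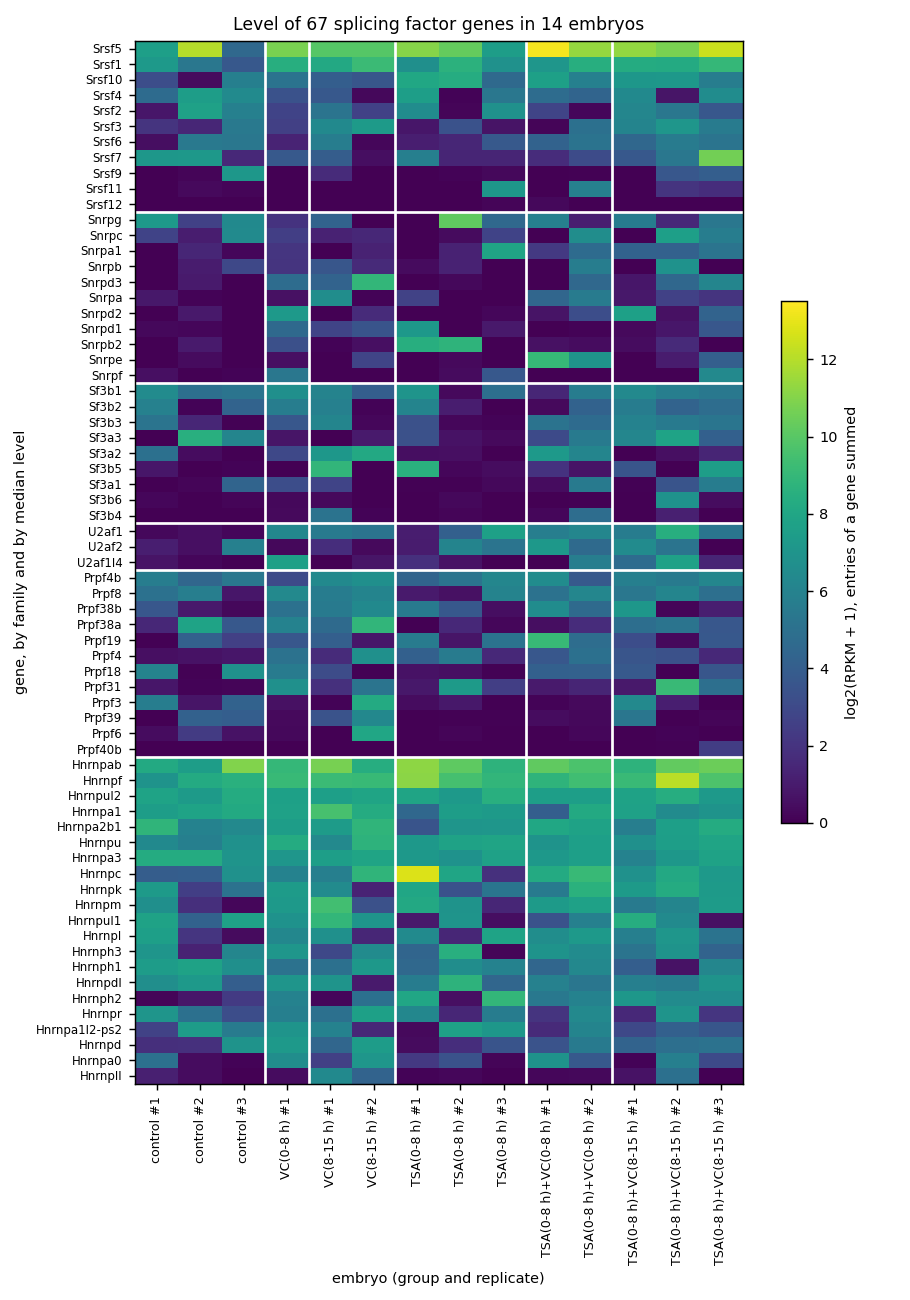
Levels of 67 of the 68 splicing factor genes (rows, grouped by family and ordered by median) in the 14 embryos (columns, by group and replicate number); colour gives log2(RPKM + 1) of the summed entries of a gene. The upper Hnrnp rows are filled in all columns, whereas the Snrp and the Sf3a and Sf3b rows are patchy within every group.

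Snrp transcripts are also the shortest of the set. Their longest annotated transcript had a median of 861 bases, against 3043 bases for Hnrnp and 2653 bases for 17767 genes matched by name. Across the 67 splicing factor genes with an annotated length, Spearman's rho between length and median level was 0.36, and across all matched genes it was 0.39. All these points come from the same 14 libraries, and genes are not independent replicates.

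With all entries of a gene summed, the highest medians over the 14 embryos belonged to Srsf5 (1768 RPKM), Hnrnpab (972), Hnrnpf (564), Srsf1 (294), Hnrnpul2 (212), Hnrnpa1 (195), Hnrnpa2b1 (174), Hnrnpu (168), Hnrnpa3 (167) and Hnrnpc (133). With the longest entry alone the medians were 358 RPKM for Hnrnpf, 311 for Srsf5, 305 for Hnrnpab, 146 for Srsf1, 142 for Hnrnpa2b1, 141 for Hnrnpa1, 88.0 for Hnrnpc and 14.5 for Hnrnpa3, so that the order was another one. The 2 entries of Srsf1 held reads in numbers that differed by under 1% in 7 embryos, and whether the same reads were counted in both was not tested. The entries of Srsf5 of 169 and 295 bases also held equal numbers of reads in several embryos, as in control replicate 2 (2428 and 1391 RPKM). Where these are the same reads, the sum that ranks Srsf5 first counts them more than once, which was not tested either. Srsf1 is the founding SR protein, and Hnrnpa1 and Hnrnpa2b1 are abundant repressors of exon use. The top of the Sf3a and Sf3b, U2af and Snrp families lay lower, with Sf3b1, the subunit that clasps the branch site, at 45.0, U2af1, the small subunit of U2AF, at 42.1 and Snrpg, one of the Sm ring proteins, at 20.3 RPKM. The spread over embryos exceeded most of these gaps. Srsf5 ranged from 22.4 RPKM in control replicate 3 to 10173 RPKM in TSA+VC(0-8 h) replicate 1, and from 16.2 to 950 RPKM with its longest entry.

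One gene was nearly constant in the midst of this spread. Hnrnpul2, a relative of the scaffold protein Hnrnpu, stood at 225, 163 and 312 RPKM in the controls, 153 to 369 after TSA, 154 to 336 after TSA+VC(8-15 h) and 186 to 236 in the other 5 embryos. Its standard deviation of log2(RPKM + 1) was 0.40, the 4th smallest of the 2514 genes with a median of 10 RPKM or more. Hnrnpa3 followed with 0.61, Hnrnpu with 0.82 and Prpf4b, a kinase of the splicing machinery, with 1.11, the last running from 7.20 to 106 RPKM. The figure of Hnrnpa3 holds for its summed entries, since the longest entry ran from 0.397 to 153 RPKM with a standard deviation of 2.12. The opposite end held Hnrnph2 (3.08), Snrpg (2.98), Hnrnpul1 (2.95) and Srsf7 (2.87), with 2.71 and 2.48 for the longest entries of the last 2. Snrpg, for example, was listed at 0 in VC(8-15 h) replicate 2 and TSA replicate 1 and at 1187 RPKM in TSA replicate 2. Of the 39 splicing factor genes at this level, 6 (15.4%) were in the least variable 10% of all genes, 9 (23.1%) in the least variable 25% and 11 (28.2%) in the most variable 25%.

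The level of several of the most abundant genes depended on which of their entries was read. The files give 1 line per transcript, 19 of the 68 genes have several, and the lengths recovered from the values, the least that fit them in all embryos, show that some lines stand for short stretches only. For Srsf5, entries of 169 and 295 bases lie beside one of 1523 bases. In TSA+VC(0-8 h) replicate 1 the short ones held 5428 and 3977 RPKM and the long one 767 RPKM. In VC(8-15 h) replicate 2 the order was the other way round, with 9.90 and 5.67 RPKM against 950 RPKM. Hnrnpc reached 7047 RPKM in TSA replicate 1, of which the 2844-base entry gave 337 RPKM. The 4 genes Srsf5, Hnrnpab, Hnrnpf and Hnrnpc made up between 15.1% (control replicate 1) and 79.5% (TSA replicate 1) of the summed level of all splicing factor genes. Reads that may be counted more than once, as in Srsf5, are part of these shares. For the genes that turn on the short entries, values of the longest entry are given beside the sums.

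**Figure D2:**
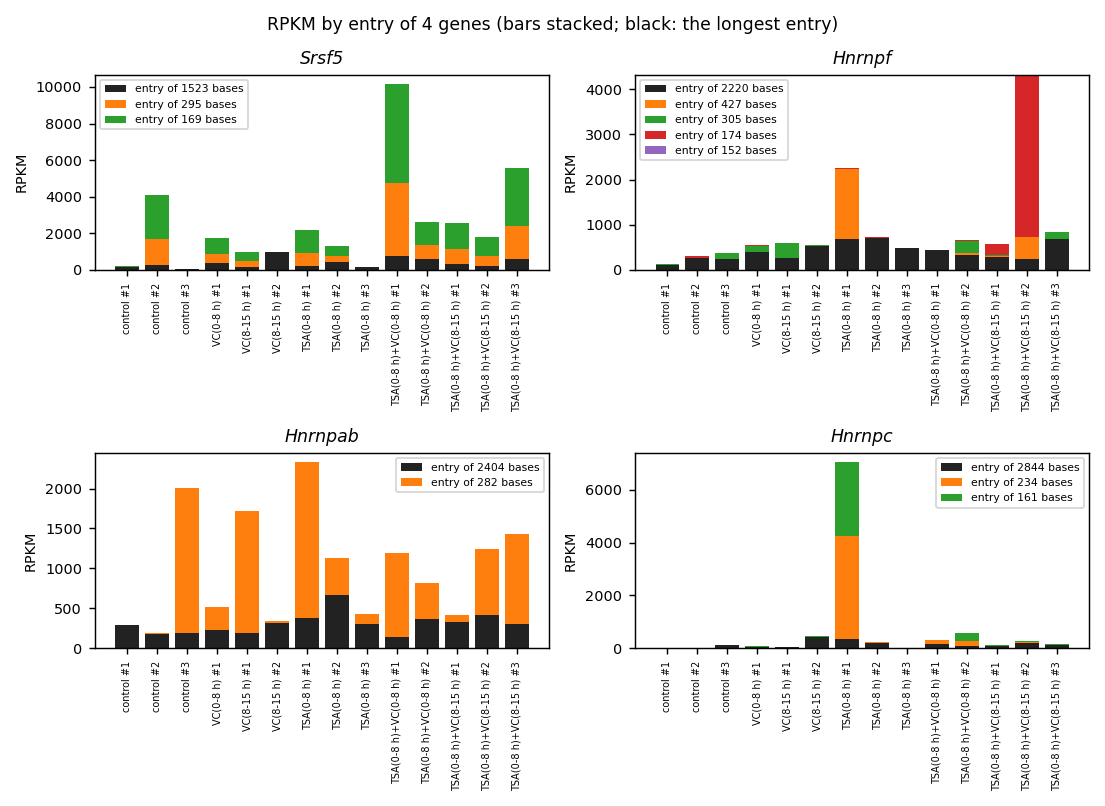
RPKM of each entry of Srsf5, Hnrnpf, Hnrnpab and Hnrnpc in the 14 embryos (bars stacked by entry, black for the longest; entries at 0 in all embryos are left out). The coloured, short entries make most of the height in some embryos and almost none in others.

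Summed over all entries, the splicing factor genes came to 4141, 7627 and 5084 RPKM in control replicates 1 to 3, 17332, 8504 and 4413 RPKM after TSA, and 7069, 12725 and 13045 RPKM after TSA+VC(8-15 h), with 6944 to 15754 RPKM in the other 5 embryos. The treated and control ranges overlapped. With the longest entry of each gene, the 3 controls had 2684 to 3458 RPKM and the 11 treated embryos 3780 to 7633 RPKM. These ranges did not overlap. The longest entry was added as a measure after the data were seen, and no such sum over all genes is given beside it. As a share of the summed level of all genes, all entries came to 1.18% to 2.13% in the controls and 1.30% to 4.16% after TSA. No test was made of such sums.

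More splicing factor genes were read in embryos that had received VC. At 1 RPKM or more, 40, 39 and 41 of the 68 genes were found in the controls and 40, 38 and 38 after TSA. The numbers were 48, 54 and 57 after TSA+VC(8-15 h), 45 and 55 after TSA+VC(0-8 h), 54 and 45 after VC(8-15 h) and 53 after VC(0-8 h). The 8 embryos with VC thus had 45 to 57 (mean 51.4) and the 6 without 38 to 41 (mean 39.3), with no overlap. All genes were also read in larger numbers on average with VC, but with overlap. Between 3104 and 6162 were found with VC (mean 5097) and 3298 to 4979 without (mean 4089). The lowest number, 3104, was that of VC(8-15 h) replicate 2. Whether the rise in splicing factor genes exceeded that in all genes was not tested. Embryos with and without TSA had overlapping numbers, 38 to 57 and 39 to 54. The split by VC was drawn after the values were seen and is given as a description. The oocyte markers summed to 645 to 1086 RPKM in the embryos with VC and 219 to 1989 RPKM in those without, and their part was not tested. With a minimum of 5 RPKM the ranges of the splicing factor genes touched at 38 genes (38 to 52 against 28 to 38). With 10 reads they touched at 44 (44 to 58 against 38 to 44), and with 10 RPKM they overlapped (35 to 50 against 26 to 36).

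The roles differed in how far the embryos with and without VC overlapped. Of the 7 Sm ring genes, 2 to 6 were read in each embryo with VC and 1 or 2 in each without. Of the 13 Prpf genes, 7 to 10 were read with VC and 5 to 7 without. The SR protein genes overlapped widely (5 to 10 and 6 to 9 of 11), as did SF3B (1 to 5 and 1 to 4 of 6). So did SF3A (1 to 3 and 0 to 2 of 3) and U2AF (1 to 3 and 0 to 3 of 3). The U1 and U2 particle proteins (1 to 4 and 1 or 2 of 4) and the hnRNP genes (19 or 20 and 17 to 20 of 21) overlapped too. The mean number was nevertheless higher with VC in every role. It was 2 and 0.83 for SF3A and 3.6 and 2.2 for SF3B, beside 9 and 6.3 for Prpf. The hnRNP genes were near their full number without VC, and some roles hold few genes. The roles are therefore not ranked by their gain. Snrpd3, an Sm ring protein, reached 1 RPKM in 6 of 8 embryos with VC and 0 of 6 without. Snrpd2 and Snrpe did so in 5 of 8 and 0 of 6. Snrpd3, Snrpd2 and Snrpe were picked as the largest differences among the splicing factor genes. The other Sm ring genes differed less. Snrpd1 was read in 4 of 8 and 1 of 6, and Snrpb in 5 of 8 and 3 of 6. Snrpf was read in 2 of 8 and 1 of 6, and Snrpg in 7 of 8 and 5 of 6. Of the 67 genes that reached 1 RPKM in any embryo, 46 (68.7%) did so in a larger share of the embryos with VC, 14 (20.9%) in an equal share and 7 (10.4%) in a smaller share, beside 60.9%, 9.18% and 29.9% of 11193 genes. The 7 included U2af2, the large subunit of U2AF (5 of 8 and 5 of 6). No single splicing factor gene, and 16 of the 11193 genes read in any embryo (0.143%), was higher in every embryo with VC than in every embryo without.

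**Figure D3:**
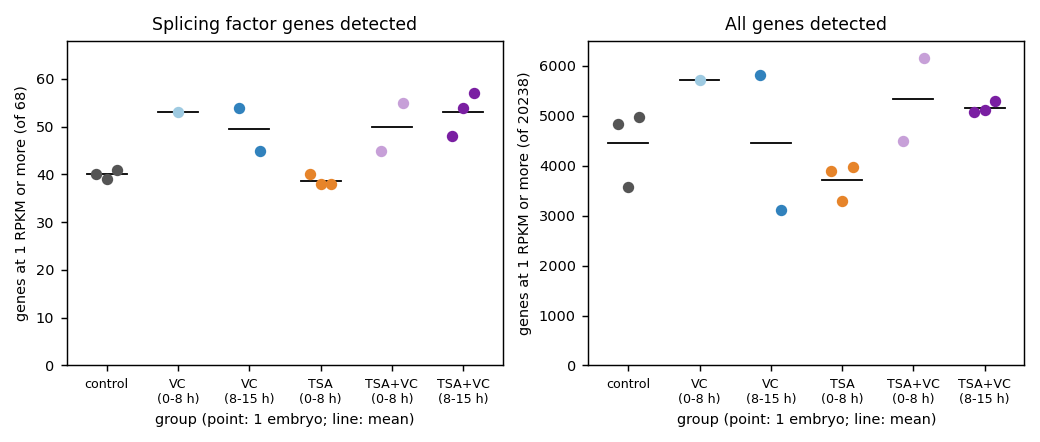
Number of genes at 1 RPKM or more in each embryo (points) by treatment group, with the group mean (line), for the 68 splicing factor genes (left) and all 20238 genes (right); both axes start at 0. On the left the 8 embryos with VC (45 to 57) lie above the 6 without (38 to 41), and on the right the groups overlap.

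Controls were next set against the 11 treated embryos of every kind. In 4 genes every treated embryo was above every control: U2af1, Prpf4, Prpf31 and Hnrnpf. This is 5.97% of the 67 splicing factor genes that reached 1 RPKM in any embryo, where 0.268% of all such genes did so. None was below every control throughout, against 0.241% of all genes. These shares are not of like genes, since a gene at 0 in any treated embryo cannot lie above every control. Splicing factor genes were at 1 RPKM in all embryos in 20.6% of cases, against 4.18% of all genes. Whether the share exceeded that of genes read as often was not tested. The split was chosen after the values were seen. With the longest entry of each gene, U2af1, Prpf4 and Prpf31 met it and Hnrnpf did not.

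U2af1 (chr17:31784027-31795699 in mm9, minus strand) was almost absent from the controls, at 0.203, 0.482 and 0.162 RPKM, which stand for 1, 3 and 2 reads. It was at 1.09, 16.5 and 205 RPKM after TSA, 49.0, 358 and 37.4 after TSA+VC(8-15 h), 53.1 and 71.0 after TSA+VC(0-8 h), 46.7 and 35.9 after VC(8-15 h) and 74.0 after VC(0-8 h). The lowest treated embryo, TSA replicate 1, also rests on 3 reads, so that its distance from the controls is within counting error. Prpf4 (chr4:62069831-62088024, plus strand), a protein of the U4/U6 particle, was at 0.493, 0.556 and 0.745 RPKM in the controls and 1.92 to 108 RPKM in the treated embryos. Prpf31 (chr7:3581587-3594088, plus strand), which holds the U4/U6 and U5 particles together, was at 0.763, 0.0927 and 0.141 RPKM in the controls and 0.843 to 564 RPKM in the treated embryos, 3 of which were under 1 RPKM and 1 of which, TSA+VC(8-15 h) replicate 2, owed most of the highest value to an entry read in no other embryo. The gap between controls and treated embryos was therefore wide for most embryos and narrow for the lowest.

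The 150 bases before the RefSeq start of these 3 genes are shown to let the promoters be compared (GRCm38.p6 coordinates, 5′ to 3′ along the gene; the expression files use mm9). Capitals mark, on either strand, the GC box GGGCGG. They also mark the CCAAT box, spelled by its name, and would mark the TATA box TATAAA.
U2af1, chr17:31658765-31658914, minus strand: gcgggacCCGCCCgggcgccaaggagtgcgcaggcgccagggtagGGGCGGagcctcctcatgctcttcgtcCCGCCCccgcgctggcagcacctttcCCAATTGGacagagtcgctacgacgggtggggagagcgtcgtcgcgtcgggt
Prpf4, chr4:62408633-62408782, plus strand: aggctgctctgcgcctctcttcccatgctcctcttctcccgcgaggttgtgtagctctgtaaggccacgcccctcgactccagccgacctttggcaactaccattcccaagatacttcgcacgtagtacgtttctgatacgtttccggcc
Prpf31, chr7:3629835-3629984, plus strand: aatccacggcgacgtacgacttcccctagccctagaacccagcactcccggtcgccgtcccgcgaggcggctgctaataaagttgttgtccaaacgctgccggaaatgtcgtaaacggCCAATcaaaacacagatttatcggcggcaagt
The U2af1 window held 3 GC boxes and 2 CCAAT boxes that overlap on opposite strands, the Prpf31 window 1 CCAAT box and the Prpf4 window none of the 3 motifs. The CG dinucleotide occurred 19, 16 and 11 times in U2af1, Prpf31 and Prpf4. Of the 59 splicing factor genes with a promoter in the table, 31 (52.5%) had a GC box in this window, 24 (40.7%) a CCAAT box and 3 (5.08%) a TATA box, beside 29.0%, 25.3% and 8.08% of 27025 promoters. A match of letters is a description, and no binding was measured.

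To ask which genes the sequential treatment altered, TSA+VC(8-15 h) was compared with control embryos, 3 of each, by limma on log2(RPKM + 1). Of the 68 genes, 41 had at least 1 RPKM in every embryo of either group and were tested among 3297 genes. None passed an adjusted p of 0.05, nor did any other gene (0% called). An alternative, limma-voom on the recovered reads, called 5 (U2af1, Hnrnph2, Srsf1, Srsf5 and U2af1l4, all higher). The share of all genes that limma-voom called is not given here, so the 5 are not read as a result about the set. Of these, U2af1, Hnrnph2 and U2af1l4 passed the filter only through the treated group. The recovered reads of Srsf1 and Srsf5 are sums over entries that may hold the same reads, which was not tested. By limma, 11 splicing factor genes were higher and 1 lower at an unadjusted p under 0.05, where 14.0% and 3.76% of all genes tested were. The groups did not overlap in 10 and 1 genes, where 15.7% and 5.70% of all genes were so separated. The median log2 fold change was 1.17 over the splicing factor genes and 0.78 over all genes, and 24 of the 41 lay above the latter. When the embryos were rescaled by median ratios, these medians became 0.45 and 0.10.

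U2af1 differed most, with the values given above. Its log2 fold change was 6.11 (SE 1.67, limma adjusted p = 0.111), with differences of 5.38, 7.92 and 5.05 within sequencing lanes 3, 4 and 5. Pooled over each group, 3131 reads of 24393543 stood against 6 of 25877144, a ratio of 554 (95% exact interval 254 to 1510, counting error only), and 2521 of the 3131 came from replicate 2. Hnrnph2 (chrX:131135718-131141599, plus strand), which like Hnrnpf binds runs of G, was at 0.156, 0.739 and 3.92 RPKM in the controls and 140, 88.8 and 92.7 after treatment, with a log2 fold change of 5.62 (SE 1.65, limma adjusted p = 0.111). The groups were far apart and the 3 treated embryos close together. Srsf1 (chr11:87860875-87867257, plus strand) was at 156, 39.2 and 12.2 RPKM in the controls and 314, 302 and 512 after treatment, with a log2 fold change of 3.06 (SE 0.99, limma adjusted p = 0.111). Its treated embryos agreed more closely than its controls. With the longest entry the groups stayed apart, at 145 to 246 against 8.81 to 73.2 RPKM, and the log2 fold change was 2.85 (limma adjusted p = 0.145).

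Hnrnpf (chr6:117850358-117875639, plus strand) was at 120, 299 and 375 RPKM in the controls and 576, 4325 and 842 RPKM after treatment (log2 fold change 2.42, SE 0.73, limma adjusted p = 0.111). With its longest entry alone the groups overlapped, at 111, 265 and 242 against 273, 241 and 681 RPKM, and the log2 fold change was 0.88 (limma adjusted p = 0.487). By contrast, Hnrnpab and Hnrnpd, which overlapped as sums, did not overlap with the longest entry, at 302 to 412 against 175 to 291 RPKM and at 18.9 to 27.6 against 0.700 to 2.52 RPKM. Hnrnph1 (chr11:50190492-50200030, plus strand), the close relative of Hnrnph2, stood on the other side. It was at 175, 219 and 105 RPKM in the controls and 15.2, 0.578 and 71.8 RPKM after treatment (log2 fold change -3.70, SE 1.44, limma adjusted p = 0.172). It was also below every control in 10 of the 11 treated embryos, VC(8-15 h) replicate 2 (147 RPKM) being the exception.

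By role, both tested U2AF genes (U2af1 and U2af1l4), 6 of 8 SR protein genes and 3 of 4 Sf3a and Sf3b genes had log2 fold changes above the median of all genes, against 9 of 19 Hnrnp genes, 2 of 5 Prpf genes and 2 of 3 Snrp genes. U2af1 and U2af1l4 were under 1 RPKM in every control and passed the filter only through the treated group. Sf3a3 and Sf3b3, each with a control under 1 RPKM, did so too. The same held for Hnrnph2, Prpf4, Snrpa1, Srsf6 and Srsf10, among others, and so for several of the SR protein genes. U2af2, at 0 in TSA+VC(8-15 h) replicate 3, was not tested. The filter favours high fold changes in such genes, so the roles are not ranked by these numbers. Beyond the genes above, Snrpa1, Srsf5, U2af1l4, Prpf4, Srsf10, Hnrnpk and Hnrnpc had an unadjusted p under 0.05, with log2 fold changes from 2.15 (Prpf4) to 4.29 (U2af1l4). Srsf5 overlapped between the groups, since control replicate 2 stood at 4107 RPKM and the treated embryos at 2538, 1773 and 5560 RPKM. With the replicate number, and so the sequencing lane, as a block, Srsf5 was the 1 splicing factor gene called. The share of all genes called in that fit is not given here.

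**Figure D4:**
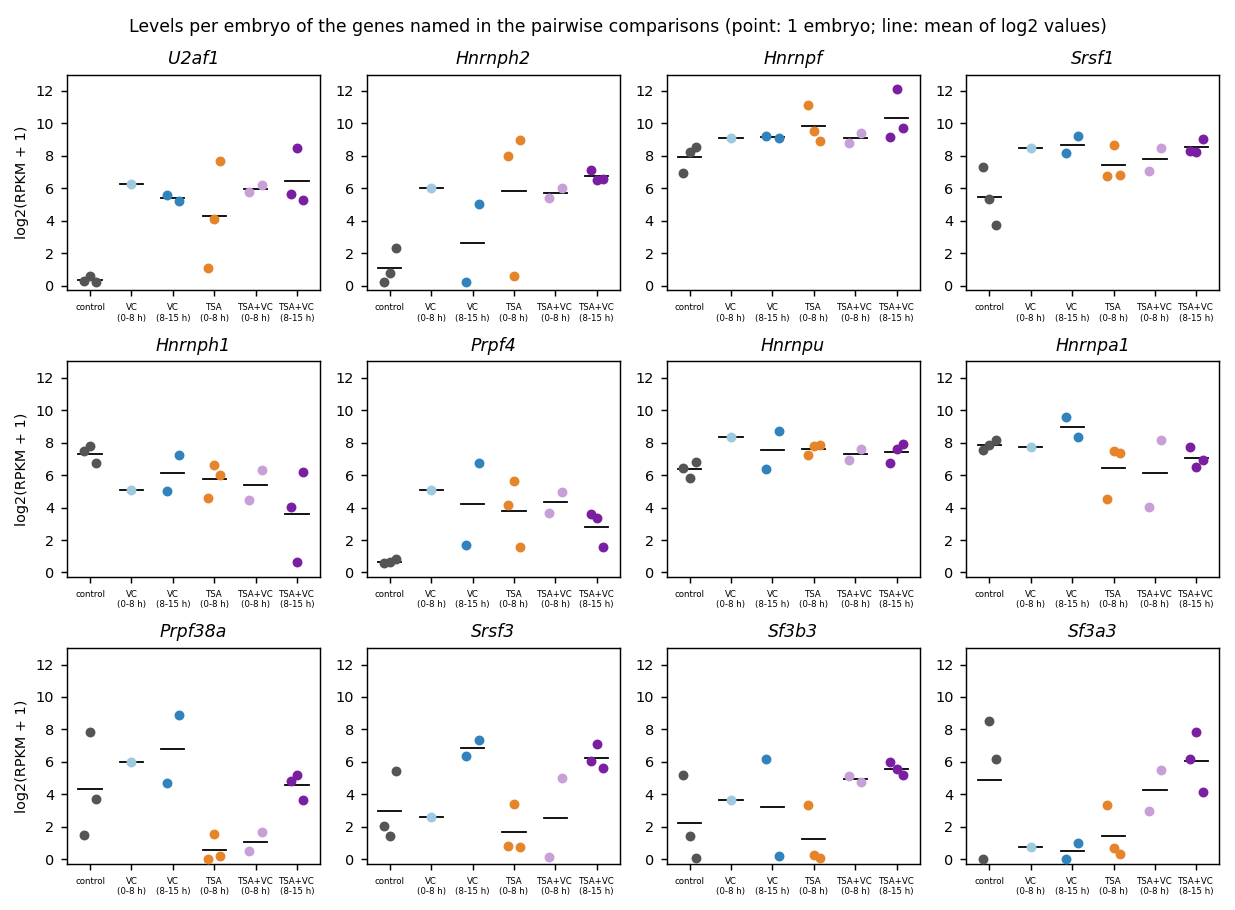
log2(RPKM + 1) of the 12 genes named in the pairwise comparisons, with 1 point per embryo by treatment group and a line at the group mean. U2af1 lies near 0 in the 3 controls and above them in all 11 treated embryos, and Hnrnph1 lies highest in the controls.

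TSA alone was compared with the same 3 control embryos. Of the 34 splicing factor genes tested among 2471, none was called (0% of all genes), and limma-voom called 0. Of the 34 genes, 4 were higher and 1 lower at an unadjusted p under 0.05, where 5.50% and 9.39% of all genes were, and 4 and 2 did not overlap, where 6.64% and 11.6% of all genes did not. The median log2 fold change was -0.32, beside -0.40 for all genes, and 17 of 34 lay above the latter. With median-ratio scaling the 2 medians became 0.17 and -0.01, so that no direction of the list is given.

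U2af1 again headed the genes without overlap (log2 fold change 3.94, SE 1.49, limma adjusted p = 0.190), though the TSA embryos differed widely among themselves. Replicate 3 held 2186 of their 2306 reads, and without it the log2 fold change was 2.25. Prpf4 was at 16.7, 48.1 and 1.92 RPKM after TSA, a log2 fold change of 3.10 (SE 1.32, limma adjusted p = 0.246). Hnrnpf was at 2253, 722 and 479 RPKM (1.95, SE 0.78, limma adjusted p = 0.218), and here its longest entry did not overlap either. The longest entry of Hnrnpab was at 308 to 671 RPKM after TSA and 175 to 291 RPKM in the controls, also without overlap. Hnrnpu, which tethers RNA to chromatin, was at 84.3, 54.9 and 112 RPKM in the controls and 147, 218 and 233 RPKM after TSA, a log2 fold change of 1.27 (SE 1.12, limma adjusted p = 0.663). The separation was narrow in both Hnrnpu and the next gene. Hnrnpa1 was at 182, 228 and 290 RPKM in the controls and 21.8, 181 and 161 RPKM after TSA (log2 fold change -1.39, SE 1.13, limma adjusted p = 0.631), and overlapped with its longest entry. Hnrnph1 was at 22.9, 96.5 and 63.1 RPKM (log2 fold change -1.59, SE 1.26, limma adjusted p = 0.619).

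TSA+VC(8-15 h) was then compared with TSA, to see what the later addition of VC changed. None of the 39 splicing factor genes tested among 3115 was called (0% of all genes). Of the alternatives, limma-voom called 2 (Srsf3 and Sf3b3, both higher), and the fit with the replicate number as a block called 1 (Srsf5). The shares of all genes called in those fits are not given here. Srsf3 and Sf3b3 passed the filter only through the TSA+VC(8-15 h) group. By limma, 6 splicing factor genes were higher and 0 lower at an unadjusted p under 0.05, where 16.1% and 2.18% of all genes were. The 6 were Srsf5 and U2af1l4 beside the 4 described next. The groups did not overlap in 6 that were higher (Hnrnpd and Srsf6 beside the same 4) and 0 that were lower, where 18.2% and 3.47% of all genes were so separated. The median log2 fold change was 0.90, below that of all genes (1.21), and 17 of 39 lay above the latter. With median-ratio scaling the medians became -0.22 and 0.06. The oocyte markers, lower in sum after the double treatment as given above, moved with this comparison, and their part was not tested.

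All 4 tested Sf3a and Sf3b genes lay above the median of all genes and 3 of 18 Hnrnp genes did. Each of these 4 had a TSA embryo under 1 RPKM, and so passed the filter only through the TSA+VC(8-15 h) group. The filter thus favoured a place above the median, and the families are not ranked by these numbers. Sf3b3 (chr8:113334139-113370703, minus strand), a subunit of SF3B, was at 9.16, 0.179 and 0.0792 RPKM after TSA and 62.5, 45.4 and 36.4 RPKM after the double treatment (log2 fold change 4.35, SE 1.65, limma adjusted p = 0.156). Sf3a3 (chr4:124392020-124409704, plus strand), a subunit of SF3A, was at 9.36, 0.603 and 0.251 RPKM and at 71.9, 224 and 16.8 RPKM (4.59, SE 1.79, limma adjusted p = 0.167). The controls overlapped TSA embryos in Sf3b3, at 35.6, 1.69 and 0.0514 RPKM, and both groups in Sf3a3, at 0, 359 and 70.5 RPKM. Prpf38a (chr4:108235777-108251941, minus strand), which takes part in activating the spliceosome, was at 0, 1.94 and 0.168 RPKM after TSA and 27.9, 35.3 and 11.8 RPKM after the double treatment (3.98, SE 1.23, limma adjusted p = 0.0928). Its controls, at 1.82, 227 and 12.4 RPKM, overlapped both groups, and TSA against control gave -3.76 (SE 1.58, limma adjusted p = 0.240). Srsf3 (chr17:29169618-29180311, plus strand), the smallest SR protein, was at 0.768, 9.65 and 0.658 RPKM and at 66.2, 134 and 48.8 RPKM (4.61, SE 1.71, limma adjusted p = 0.143). Sf3b3, Sf3a3, Prpf38a and Srsf3 were picked for groups that did not overlap, so a higher level within each sequencing lane follows from that choice.

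**Figure D5:**
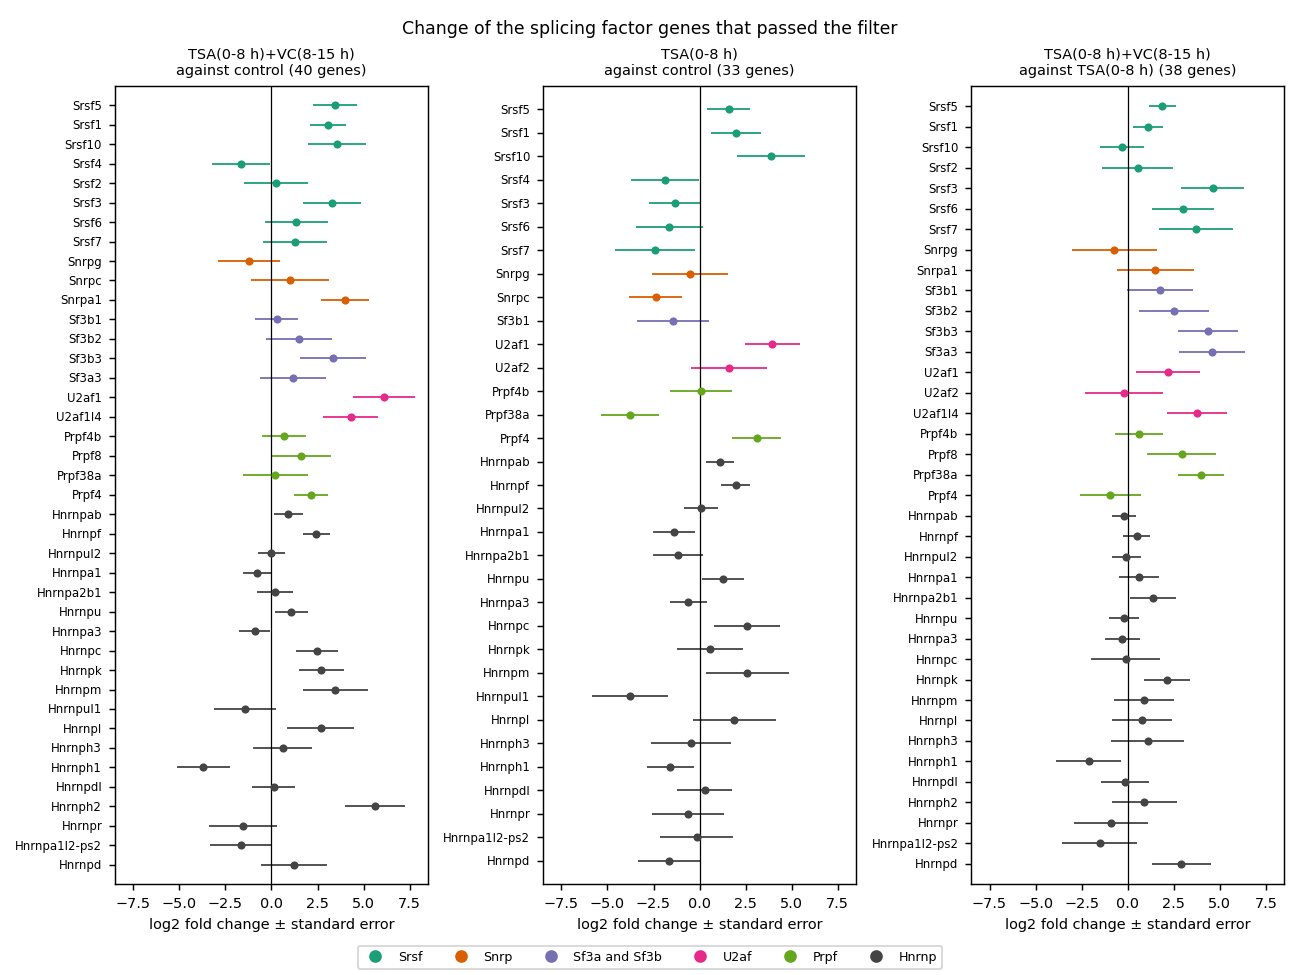
log2 fold change ± standard error (limma) of the splicing factor genes that passed the filter, 1 gene left out, in the 3 pairwise comparisons of 3 against 3 embryos; colours give the family, and the order of genes is that of the heat map. In the right panel the Sf3a and Sf3b genes lie right of 0, while the Hnrnp genes are spread around it.

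All 14 embryos were also fitted together, with a term for TSA and 1 for each VC period, over 7516 genes including 64 of the splicing factor genes. These fits share the embryos of the comparisons above. No splicing factor gene was called for TSA (0% of all genes) or for VC(8-15 h) (0.0133% of all genes), and limma-voom also called 0 of them for either. For TSA, 6 genes were higher and 3 lower at an unadjusted p under 0.05, where 2.12% and 2.62% of all genes were, with medians of 0.19 and -0.01. The higher ones were Srsf10 (log2 difference 3.08, SE 1.04), Hnrnph2 (3.51, SE 1.26), Srsf5, Hnrnpf, U2af2 and Snrpa1, and the lower ones Hnrnpul1 (-3.13, SE 1.15), Prpf38a (-3.44, SE 1.31) and Hnrnpa1, with limma adjusted p from 0.968 to 0.985.

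For VC(8-15 h), 7 genes were higher and 0 lower, where 5.42% and 1.26% of all genes were. The median was 1.03, beside 0.42 for all genes, and 48 of 64 splicing factor genes lay above the latter. By role these were 8 of 8 Sf3a and Sf3b, 6 of 7 Sm ring, 9 of 11 Prpf and 3 of 4 U1 and U2 particle genes. The others were 2 of 3 U2AF, 14 of 21 hnRNP and 6 of 10 SR protein genes. The roles are not ranked by these numbers. With median-ratio scaling the medians were 0.64 and 0.08. Snrpd3 differed most (log2 difference 4.90, SE 1.54, limma adjusted p = 0.480). It was at 0, 0.965 and 0 RPKM in the controls, 0, 0.212 and 0 after TSA, 18.8 and 493 after VC(8-15 h) and 0.762, 21.9 and 69.3 after TSA+VC(8-15 h), while TSA+VC(0-8 h) gave 0 and 23.0 and VC(0-8 h) 26.0. Srsf3 (4.27, SE 1.41), Srsf5, Srsf1, Hnrnpll, U2af1 and Prpf38a followed, with limma adjusted p up to 0.730. Whether the change with VC(8-15 h) differed with and without TSA was tested in 11 embryos and 6549 genes. No splicing factor gene of 62 passed (0% of all genes; 0 by limma-voom), and 2 had an unadjusted p under 0.05, Sf3a3 (8.98, SE 3.23) and Srsf7 (6.77, SE 2.97), both at a limma adjusted p of 0.895.

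Other genes, most of them splicing genes outside these name families, were read from 7 lists. The lists follow names in part. The list of U5 and tri-snRNP proteins also holds proteins of other particles, such as Snrnp70 of U1. The Lsm list holds Lsm14a and Lsm14b, which share the name but are not spliceosome proteins. No gene of the 7 lists was called in any of the 6 fits. In TSA+VC(8-15 h) against control, the numbers higher at an unadjusted p under 0.05 were 1 of 8 tested for U5 and tri-snRNP proteins, 0 of 4 for Lsm proteins, 1 of 13 for splicing helicases and catalytic proteins, 1 of 6 for the exon junction complex, 0 of 3 for SR protein kinases, 3 of 19 for other regulators and 1 of 6 for the SMN complex and Sm assembly, and none was lower. The TSA and control embryos gave 0 to 1 higher and 0 to 1 lower in each list, and TSA+VC(8-15 h) against TSA 0 to 2 higher and 0 to 1 lower. The most abundant genes of these lists were Txnl4a (153 RPKM) and Snrnp70 (80.2), Lsm14a (207) and Lsm14b (96.6), Cwc22 (177) and Ddx39a (144), Rnps1 (80.1) and Pnn (40.1), Srpk1 (72.6) and Srpk2 (24.8), Raly (118) and Ptbp1 (108), and Strap (106) and Wdr77 (54.2), each as the median over the 14 embryos. Among the 11 measured 2-cell markers, 3 of 6 tested were higher at an unadjusted p under 0.05 in TSA+VC(8-15 h) against control, beside 0 of 5 oocyte and 0 of 1 cumulus and granulosa cell markers.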

How the data were processed

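RNA of 14 single embryos was amplified in 14 and 12 PCR cycles and sequenced in 50 bp single reads. After trimming, the authors aligned them to mm9 (TopHat2), counted those on exons and deposited RPKM, that is, counts corrected for library total and transcript length. Amplified reads are not independent molecules, so intervals and floors cover counting error only.

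Entries were named through RefSeq (GRCm38.p6, names only) and summed per gene (25246 of 25650 had a symbol). In 14531 of 14532 entries read in at least 2 embryos the RPKM steps gave whole reads, within 1e-06 of the read number. Positions are from GENCODE vM1 (mm9), with 1 gene, Hnrnpa1l2-ps2, unmatched.

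The test was limma 3.58.1 (R 4.3.3), fitted to log2(RPKM + 1) with a trend and Benjamini-Hochberg adjustment at 0.05, two-sided, over genes that reached 1 RPKM throughout one group (in 3 of 14, or 3 of 11, embryos in the joint fits). Fold changes are on that scale, which understates low genes. The fit was tested on simulated data. The labels do not tie embryos to experiments, so p-values measure the spread between embryos. Groups came from the labels and sequencing lanes (3, 4 and 5) from library identifiers; same-numbered embryos of the main groups shared a lane. Their deviations correlated at -0.05 to 0.05, and the main comparison has no block; the study's methods state none.

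Members and lists were chosen with earlier results of these data known. Genes named were, per pairwise comparison, up to 4 a direction of lowest p without overlap; the 10 highest medians; the highest of each family; the 4 most and least variable at a median of 10 RPKM; and the 2 highest of each other list. Genes named beyond these were chosen after their values were seen. The values of 1 gene of the set are not reported here; it is included in the counts.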

Additional observations from a re-analysis of the deposited data

How the results depend on the processing

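The number of splicing factor genes called was 0 in all 6 fits and remained 0 under most alternatives. In TSA+VC(8-15 h) against control it became 3 with a minimum of 5 RPKM (U2af1, Hnrnph2, Snrpa1), 5 by limma-voom on recovered reads (U2af1, Hnrnph2, Srsf1, Srsf5, U2af1l4) and 1 with the replicate block (Srsf5), and 0 to 1 when single embryos were left out (Srsf5, without control replicate 2). In TSA+VC(8-15 h) against TSA it became 1 with a minimum of 5 RPKM (Prpf38a), 2 by limma-voom (Srsf3, Sf3b3) and 1 with the replicate block (Srsf5). The block added no other call. For VC(8-15 h) in all embryos it was 0 to 1 with single embryos left out (Srsf5, without control replicate 2). Fewer genes were tested with the higher minimum, and the cause of the other changes was not tested. The shares of all genes called under these alternatives are not given here, so the counts describe the dependence on processing only. Median-ratio scaling moved the median log2 fold change of the splicing factor genes from 1.17 to 0.45 and from 0.90 to -0.22 in the comparisons of TSA+VC(8-15 h) with control and with TSA, and that of all genes from 0.78 to 0.10 and from 1.21 to 0.06. The 15 changes named in the pairwise comparisons kept their direction in all 268 recomputed values. They had been picked for groups that did not overlap, so this was in part fixed by the choice. With 3 embryos a group, the median standard error was 1.58 in the first comparison, and even the largest log2 fold change (6.11, U2af1) was not called. Differences of single genes well above the standard error are thus not resolved, and values below 1 RPKM rest on few reads. The longest entry, the filter on any 3 of 6 embryos and the detection minima were added after seeing the data.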
